A study of Mus musculus with 2 samples.

Results

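Ret signalling of the ureteric bud was described here through 7 genes, Ret, Gdnf, Gfra1, Gfra2, Etv4, Etv5 and Emx2, taken by their symbols from a deposited table of 30744 symbols. All 7 were found, each with 1 gene model. The table holds 2 mouse kidney RNA-seq libraries. One comes from a normal kidney labelled WT, with no doxycycline given. The other comes from a tumour in the kidney of a doxycycline-treated animal with the genotype Tet-OSKM/mPer2-luc. Doxycycline switches on the reprogramming factors Oct4, Sox2, Klf4 and c-Myc in Tet-OSKM cells, and mPer2-luc reports the clock gene Per2 by luciferase. Both labels give the background as C57BL/6 x DBA/2 F1. The growth protocol, which stands with both libraries, describes chimeric embryos made from embryonic stem cells carrying Rosa26-M2rtTA, TetO-OSKM and mPer2-luc, and whether both sampled animals were such chimeras, which also hold host cells without the transgenes, is not stated. Neither the age and sex of the animals nor the number pooled is stated in the labels.

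In the embryonic kidney the ureteric bud is an epithelial tube that grows into the surrounding mesenchyme and branches to form the collecting duct tree. The mesenchyme secretes the ligand GDNF, which binds the co-receptor GFRA1 on bud cells, and the pair activates the receptor tyrosine kinase RET. RET signalling raises the related ETS transcription factors ETV4 and ETV5, which act in the cells of the bud tips. EMX2 is a homeobox factor of the bud epithelium, without which the mouse bud enters the mesenchyme but fails to branch. Outside the kidney, GDNF signalling is known from enteric and other neurons and from spermatogonial stem cells, and ETV4 and ETV5 are also raised by FGF signalling and made in pluripotent cells.

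The exons held 29258428 reads in the normal library (72.4% of its header total) and 20836819 in the tumour library (62.8%). With 1 library per group no difference has a replicate check, so every ratio below compares these 2 libraries and not the conditions, and every interval covers counting error only. Ratios are tumour over normal after TMM scaling of library sizes (edgeR), with an exact conditional 95% interval from the 2 counts, and CPM values are TMM-scaled counts per 1000000 reads. A gene with at least 20 reads over both libraries was taken as measured, and a measured gene was called when it differed at least 2-fold with an interval that excluded 1. By this rule 31.1% of 16326 measured genes were called higher in the tumour library and 28.1% were called lower. Higher calls made up 52.5% of all calls, against 67.6% under plain CPM, 62.5% under header totals and 62.6% under RPKM plus 0.1. Over the measured genes the median log2 ratio was 0.08 after TMM, and these settings moved it up by 0.57, 0.36 and 0.33. As a check of the labels, the induced factors Pou5f1 (Oct4) and Sox2 had 0 reads in the normal library against 11358 and 3820 in the tumour, without telling transgene from endogenous gene.

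Of the 7 genes, 5 were called higher in the tumour library (Ret, Gfra1, Gfra2, Etv4 and Etv5), 1 was called lower (Emx2), and Gdnf was under the read minimum. The receptor, both co-receptors and both ETS factors thus stood on one side and the homeobox factor on the other. Against the backgrounds of 31.1% and 28.1%, calls in themselves were common in this comparison. The same 5 and 1 genes were called after scaling by plain CPM, by header totals and by DESeq2 size factors, as the values given gene by gene below and the plot of ratios under 4 scalings show.

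Emx2 and its divergent neighbour gave the one lower signal, and the sequence that separates them is shown because both genes start within it. Emx2 starts on the forward strand of chromosome 19 (59458690 to 59465357, mm10), and Emx2os, a noncoding antisense gene, runs the other way from 59458635 down to 59425104. The models leave 54 bases between the 2 starts. The RefSeq window at chr19:59458440-59458739 (GRCm38.p6, forward strand) covers 250 bases before to 50 after the Emx2 start, and its capitals mark those 54 bases. For comparison, the window of Etv5, the gene with the most tumour reads among the 7, is at chr16:22439521-22439820 (reverse strand), and its capitals mark the motif CCAAT, searched on both strands and chosen after the windows had been read.
Emx2: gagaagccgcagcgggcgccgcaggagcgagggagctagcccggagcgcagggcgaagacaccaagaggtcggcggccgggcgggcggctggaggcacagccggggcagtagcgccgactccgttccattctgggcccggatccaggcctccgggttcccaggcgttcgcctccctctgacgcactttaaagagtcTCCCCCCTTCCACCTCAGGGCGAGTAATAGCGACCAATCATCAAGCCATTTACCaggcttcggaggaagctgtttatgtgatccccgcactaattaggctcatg
Etv5: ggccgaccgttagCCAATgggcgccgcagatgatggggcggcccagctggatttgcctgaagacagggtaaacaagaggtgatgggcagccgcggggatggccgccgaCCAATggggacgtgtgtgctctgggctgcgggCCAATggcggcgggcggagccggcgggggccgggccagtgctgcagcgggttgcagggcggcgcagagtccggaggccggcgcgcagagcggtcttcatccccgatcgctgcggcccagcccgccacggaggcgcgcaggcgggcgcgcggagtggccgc

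Both windows were rich in CG dinucleotides, with 26 in that of Emx2 and 37 in that of Etv5, against a median of 7 over 32851 windows of the same length. The Etv5 window held 3 CCAAT matches, and 3.37% of all windows held 3 or more. The Emx2 window held 1, inside the 54 bases and 21 bases before the Emx2 start, as did 37.4% of all windows at least once. The ETS-type motifs CGGAAG and AGGAAG were searched on both strands, and 46.5% of all windows held either. RefSeq windows were matched for 4 of the 7 genes (Gdnf, Gfra1, Etv5 and Emx2), 6 windows in all, of which 3 held an ETS-type match. Gdnf held both motifs in the window at the start of its deposited model, Emx2 held AGGAAG 9 bases after its start, and an inner Etv5 start held AGGAAG 1 base after it. No match was found at the Etv5 start printed above or in the Gfra1 window. A match describes the letters only, and none of these counts bears on binding.

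Emx2 had 302 reads in the normal library against 25 in the tumour. These are 12.6 CPM (exact Poisson 95% interval 11.2 to 14.1) and 0.986 CPM (0.638 to 1.46). The normal library was high and the tumour library low, 12.7-fold apart (8.46 to 20.003). Only 6.33% of measured genes had a smaller ratio, tumour over normal. Emx2os, which is not one of the 7 genes, moved the same way, from 141 to 14 reads or 10.6-fold lower (6.12 to 19.9). The deposited models do not overlap each other, although the GENCODE gene of Emx2 begins upstream of the Emx2os start on the same assembly. The library kit keeps strand, but the labels do not state the strand setting of the counting, so reads near the shared start cannot be assigned to one gene with certainty.

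**Figure D1:**
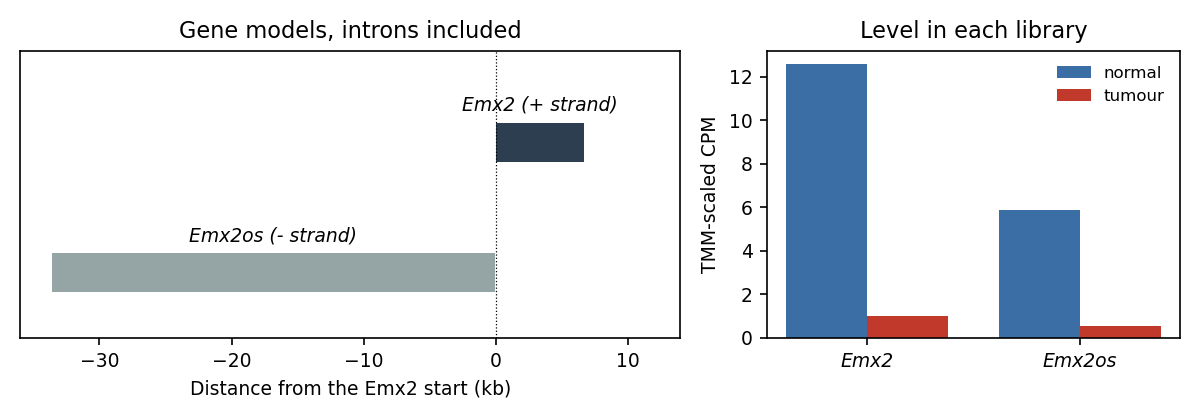
The left panel maps the Emx2 and Emx2os gene models in kb from the Emx2 start, and the right panel gives their TMM-scaled CPM as bars for the normal (blue) and tumour (red) library. The genes point away from each other, and the bars of both are taller in the normal library (12.6 and 5.86 CPM) than in the tumour library (0.986 and 0.552 CPM).

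The paralog Emx1, a homeobox factor best known from the developing forebrain, had 600 reads in the normal library against 3 in the tumour, 211-fold lower in the tumour (71.8 to 1026). Per length the normal kidney held more Emx1 than Emx2, with deposited RPKM values of 12.7 and 2.88, a ratio of 4.41 (3.83 to 5.08). In the tumour library the RPKM values were 0.0773 and 0.290, and the order was the opposite, at an Emx1 to Emx2 ratio of 0.266 (0.0514 to 0.872). Both Emx genes were thus lower in the tumour library.

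The ligand came first in the pathway and gave the fewest tumour reads of the 7 genes. Gdnf (chromosome 15, 7813727 to 7837580, forward strand) had 5 reads in the normal library against 13 in the tumour, or 0.208 CPM (0.0675 to 0.485) and 0.513 CPM (0.273 to 0.877). The ratio of 2.47 had an interval from 0.825 to 8.83, so no difference was detectable at this depth. Among other ligands of the family, neurturin (Nrtn), the ligand that prefers the co-receptor GFRA2, had 61 and 39 reads, artemin (Artn) 19 and 20, and the RET ligand Gdf15, which signals through Gfral, 62 and 38. None of the 3 was called, with log2 ratios of -0.72, -0.00 and -0.78, and persephin (Pspn) and the co-receptor Gfral had 0 reads in both libraries. Ligand reads were therefore few in both libraries, but read counts do not compare genes of unlike length. Per length, Nrtn and Gdf15 had deposited RPKM values of 1.48 and 1.42 in the normal library and 1.15 and 1.06 in the tumour. Both stood above Ret, at 0.0205 and 0.524 in the normal and tumour library. Artn, at 0.216 and 0.277, stood above Ret in the normal library only, as did Gdnf, at 0.0329 and 0.104, where counting error did not separate it from Ret.

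Ret (chromosome 6, 118151748 to 118197744, reverse strand), the kinase that all these ligands act through, had 5 reads in the normal library against 105 in the tumour. The levels were 0.208 CPM (0.0675 to 0.485) and 4.14 CPM (3.39 to 5.01), and the intervals did not overlap. The tumour library stood 19.9-fold higher (8.27 to 62.6), a ratio above that of 93.2% of measured genes. The size of that fold rests on the 5 normal reads: the log2 ratio of 4.32 became 2.37 with the deposited RPKM plus 0.1. Ret was still a minor transcript in the tumour, where 15.6% of measured genes had a lower RPKM.

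Gfra1 (chromosome 19, 58235581 to 58454594, reverse strand), the co-receptor that holds GDNF on the cell surface, had 218 reads in the normal library against 895 in the tumour. Its levels were 9.07 CPM (7.90 to 10.4) and 35.3 CPM (33.0 to 37.7), 3.89-fold higher in the tumour (3.35 to 4.53). Gfra1 had the smallest ratio of the 5 genes called higher, yet the second most tumour reads of the 7. Gfra2 (chromosome 14, 70890107 to 70979840, forward strand), the co-receptor of neurturin, had 4 and 30 reads. Its levels were 0.166 CPM (0.0453 to 0.426) and 1.18 CPM (0.798 to 1.69), 7.11-fold higher in the tumour with a wide interval (2.51 to 27.8). The size of that fold rests on the 4 normal reads: the log2 ratio of 2.83 became 1.49 with the deposited RPKM plus 0.1. Gfra3 and Gfra4, the co-receptors of artemin and persephin, had 7 and 17 reads in the normal library against 5 and 27 in the tumour, so that Gfra3 was not measured and Gfra4 was not called. Ncam1, a cell adhesion molecule that can bind GDNF together with GFRA1 in the absence of RET, had 190 and 731 reads and was 3.65-fold higher (3.11 to 4.30). Of the 12 ligands and receptors of the family 8 were measured, 4 of them called higher (Ret, Gfra1, Gfra2 and Ncam1) and none lower. Of all measured genes 31.1% were called higher and 28.1% lower.

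Per length, co-receptor exceeded kinase in both libraries. In the normal library the deposited RPKM of Gfra1 was 1.22 and that of Ret 0.0205, a ratio of 59.4 (25.1 to 185). In the tumour library the values were 6.08 and 0.524, a ratio of 11.6 (9.47 to 14.3), so the counting intervals of the 2 ratios did not overlap. Gfra1 also exceeded Gfra2 in both, at ratios of 42.7 (16.4 to 158) and 23.4 (16.3 to 34.9), whose intervals did overlap.

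Etv4 (chromosome 11, 101769742 to 101785310, reverse strand) had 26 reads in the normal library against 523 in the tumour. The levels were 1.08 CPM (0.706 to 1.58) and 20.6 CPM (18.9 to 22.5), 19.1-fold higher (12.9 to 29.5). Etv5 (chromosome 16, 22381313 to 22439570, reverse strand) had 416 and 4163 reads, the most of the 7 in both libraries. Its levels were 17.3 CPM (15.7 to 19.0) and 164 CPM (159 to 169), 9.49-fold higher (8.58 to 10.5). The interval of Etv4 lay wholly above that of Etv5. In the tumour library 91.5% of measured genes had a lower RPKM than Etv5, against 43.8% in the normal library.

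The third factor of this ETS subfamily, Etv1, had 458 and 420 reads and was not called, and its log2 ratio of -0.20 is smaller than the shift of 0.57 that plain CPM brings, which turns its sign. In the normal library the RPKM values of Etv1 and Etv5 were 2.87 and 2.70, an Etv5 to Etv1 ratio of 0.943 (0.824 to 1.08) that counting error does not separate, and Etv4 was at 0.277. In the tumour library Etv5 was at 32.9, Etv4 at 6.79 and Etv1 at 3.20, so Etv5 stood 10.3-fold above Etv1 (9.31 to 11.4) and Etv4 2.12-fold above it (1.86 to 2.42). The ratio of Etv5 to Etv4 was 9.76 (6.57 to 15.1) in the normal library against 4.85 (4.43 to 5.33)  in the tumour.

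The order of levels per length among the 7 genes differed between the libraries. In the normal library Emx2 (RPKM 2.88) and Etv5 (2.70) led and were not separated by counting error, with an Etv5 to Emx2 ratio of 0.938 (0.807 to 1.09). Gfra1 (1.22) and Etv4 (0.277) followed, and Gdnf (0.0329), Gfra2 (0.0285) and Ret (0.0205), with 4 or 5 reads each, could not be ordered. In the tumour library the order was Etv5 (32.9), Etv4 (6.79), Gfra1 (6.08), Ret (0.524), Emx2 (0.290), Gfra2 (0.260) and Gdnf (0.104). Etv4 and Gfra1 were barely apart there, at 1.12 (1.001 to 1.24), and Emx2 and Gfra2 were not, at 1.12 (0.630 to 1.97). Ret exceeded Emx2 at 1.80 (1.16 to 2.91), whereas in the normal library Emx2 stood far above Ret.

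**Figure D2:**
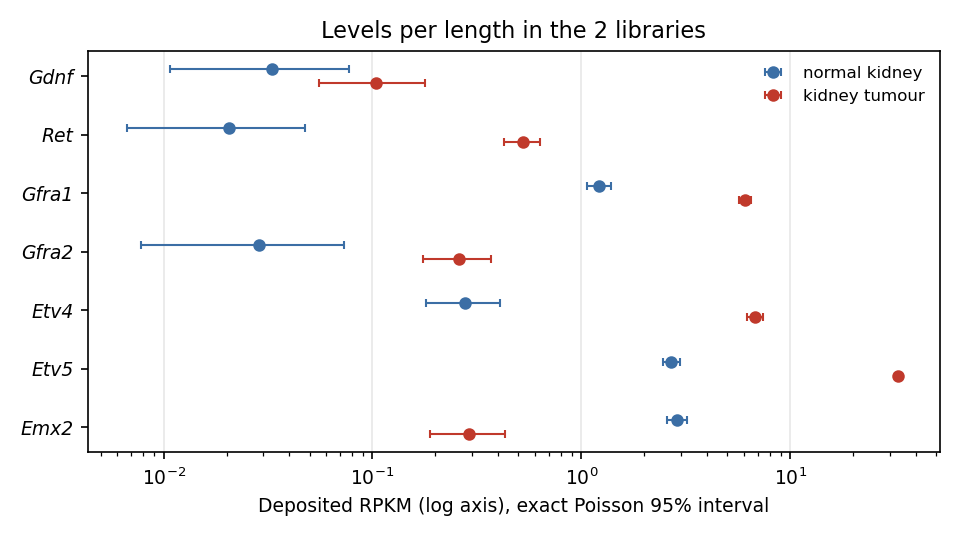
The plot gives the deposited RPKM of the 7 genes on a log axis, with bars for the exact Poisson 95% interval, in the normal (blue) and tumour (red) library. The tumour point lies right of the normal point for every gene but Emx2, and the bars of the 2 libraries overlap for Gdnf alone.

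Below the receptor, most genes of the shared signalling machinery were not called. Of 29 adaptors and kinases of the cascade, all measured, 5 were called higher, 6 lower and 18 neither. These shares of 17.2% higher and 20.7% lower stood below the 31.1% and 28.1% of all measured genes. The median log2 ratio was 0.25 beside 0.08 for all measured genes. The adaptor Dok5 had 1 read in the normal library against 104 in the tumour (98.6-fold higher, 17.3 to 3932), and Cbl, a ubiquitin ligase that marks active receptor kinases for breakdown, was 3.28-fold higher (2.999 to 3.601). The GTPase Nras and the adaptor Shc1 were also called higher, with log2 ratios of 1.56 and 1.19. On the lower side, Rap1gap, which switches off the small GTPase Rap1, was 6.85-fold lower (6.02 to 7.83) and the docking protein Gab2 3.28-fold lower (2.86 to 3.76). With plain CPM 13 of the 29 were called higher.

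Inhibitors of receptor kinase signalling, many of them feedback genes, were called higher for 5 of 8 genes (62.5%) and lower for none. Of all measured genes 31.1% were called higher and 28.1% lower. The median log2 ratio of the list was 1.55. Il17rd, a membrane inhibitor of FGF signalling, was 10.6-fold higher (9.67 to 11.6), Spry2 6.26-fold (5.44 to 7.23), Spry1, which restrains RET in the ureteric bud, 3.28-fold (2.89 to 3.72) and Spred2 2.62-fold (2.24 to 3.07). The other was Spry4, with a log2 ratio of 2.00, and Dusp6, the phosphatase of ERK, was not called at 0.89. At a 4-fold threshold 3 genes were called, beside 18.4% of all measured genes.

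Genes that depend on Ret or on Etv4 and Etv5 in bud tips were called higher for 6 of 8 (75.0%) and lower for 1 (12.5%). Beside these stand 31.1% and 28.1% of all measured genes. The median log2 ratio of the list was 2.30. The transcription factor Myb had 1 read in the normal library against 900 in the tumour (853-fold higher, 153 to 33742). Of the same list, and named after their values were seen, Wnt11, which tip cells secrete, had 9 and 70 reads (7.37-fold, 3.67 to 16.8), the matrix protease Mmp14 was 8.77-fold higher (7.44 to 10.4) and the chemokine receptor Cxcr4 3.29-fold (2.63 to 4.15). Spry1, with the value above, was also called higher, and both Spry1 and Dusp6 stand in the list of inhibitors too. The exception was Met, the receptor of hepatocyte growth factor that also acts in adult tubules, with 7953 and 839 reads, 10.0-fold lower (9.31 to 10.7). The summed level of the list was 418 CPM in the normal library and 305 CPM in the tumour. Met made up 331 and 33.1 CPM of these sums.

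Genes of the ureteric bud epithelium moved the other way as a list. Of 17 genes, 10 were called lower (58.8%) and 2 were called higher (11.8%), and the median was -1.77. Of all measured genes 28.1% were called lower and 31.1% higher. The calcium-binding protein Calb1 was 212-fold lower (158 to 291) and the factor Tfap2b 11.0-fold lower (8.79 to 13.9), both also made in the adult distal nephron. The 2 higher genes were the factors Sox9, with 3 and 167 reads (52.8-fold, 17.7 to 259), and Sox8, with 13 and 58 (4.23-fold, 2.29 to 8.42). With plain CPM 4 genes were called higher.

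Activators of Gdnf in the mesenchyme were divided, with 6 of 13 measured genes called higher, 5 lower and 2 neither. These shares were 46.2% higher and 38.5% lower, beside 31.1% and 28.1% of all measured genes. Eya1, a transcriptional coactivator upstream of Gdnf, had 5 reads in the normal library against 123 in the tumour (23.3-fold, 9.73 to 73.1). Nephronectin (Npnt), a matrix ligand from the bud, was 7.83-fold lower (6.99 to 8.79) and Hoxa11 2.57-fold lower (1.59 to 4.28). Npnt and Pax2, which was also called lower, stand in the list of bud epithelium genes too, so their lower calls are counted in both lists. With plain CPM 1 gene of this list was called lower. Among 6 genes that restrict Gdnf or budding, 5 (83.3%) were called lower and 1 (16.7%), Spry1, higher. The forkhead factor Foxc2 was 4.51-fold lower (2.30 to 9.63), Bmp4 4.26-fold (3.63 to 5.02) and the guidance ligand Slit2 2.04-fold (1.88 to 2.22), and the others were Robo2 and Foxc1, with log2 ratios of -1.32 and -1.44. With plain CPM 2 of the 6 were called lower.

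FGF ligands, which can raise Etv4 and Etv5 beside RET, were among the larger differences. With 1448 reads in the tumour and 0 in the normal library, Fgf4 was at least 458-fold higher when 0 is replaced by a floor of 3 counts per library. That floor sets the bound, whereas counting error alone allows a fold as low as 372. Fgf8 had 0 and 341 reads, at least 108-fold higher by the same floor with a lower counting limit of 87.2-fold, and Fgf10, which signals in the bud, had 2 and 111 (52.6-fold, 14.2 to 440). Fgf7 had 2 and 10 reads and was not measured. The receptor Fgfr1 was 2.05-fold higher (1.90 to 2.21), and Fgfr2, the FGF receptor of the ureteric bud, was not called with a log2 ratio of 0.50. Thus 4 of the 5 measured FGF genes were called higher (80.0%) and none lower, beside 31.1% and 28.1% of all measured genes. Across all lists, without the 7 genes themselves, 28 of 88 measured genes were called higher (31.8%) and 26 lower (29.5%), shares near the 31.1% and 28.1% of all measured genes. With plain CPM 42 were called higher and 17 lower.

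**Figure D3:**
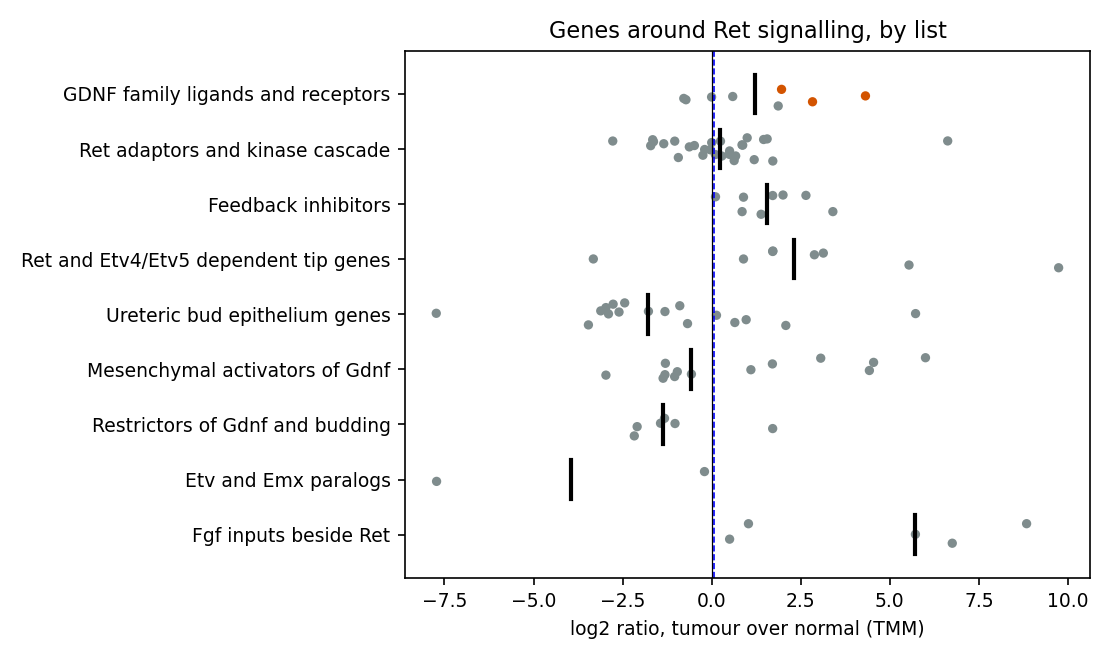
Each point is a measured gene of a list, placed by its log2 ratio, tumour over normal, with orange for Ret, Gfra1 and Gfra2, a black bar for the median of the list and a dashed line for the median of all measured genes (0.08). Feedback inhibitors and tip genes, lists that share Spry1 and Dusp6, lie mostly to the right, with medians of 1.55 and 2.30. Bud epithelium genes lie mostly to the left, with a median of -1.77.

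Markers of the cell types that could carry these transcripts also differed between the libraries. The counts of calls in these lists stand beside 31.1% of all measured genes called higher and 28.1% called lower. In bulk tissue fewer cells of a type and less RNA per cell cannot be told apart. All 8 markers of collecting duct principal cells, the adult descendants of the bud, had reads in the normal library and were called lower in the tumour, with a summed level of 302 CPM against 25.8 CPM. All 9 pluripotent cell markers were called higher, from a sum of 26.6 CPM to 1780 CPM, and 6 of them, Pou5f1 and Sox2 included, had 0 reads in the normal library. Most of the normal sum came from Esrrb, at 26.5 CPM. The tumour sum includes the induced factors Pou5f1 and Sox2, at 448 and 151 CPM. Their reads do not tell transgene from endogenous gene. Of 8 measured neuron markers 7 were called higher and 1 lower, with sums of 20.7 and 142 CPM, and 4 of the 9 listed, Tubb3 included, had 0 reads in the normal library.

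Nephron progenitor markers summed to 25.9 CPM in the normal library against 17.7 CPM  in the tumour. There 2 of 4 measured genes were called higher and 1 lower, in a comparison that called 31.1% of all measured genes higher and 28.1% lower. The lower one, Crym, made up 20.6 and 6.90 CPM of the 2 sums, and Six2, a defining factor, had 0 and 8 reads. Neural crest and enteric neuron markers, of cells that use RET, summed to 36.6 and 41.5 CPM, with 2 of 4 measured genes called higher, none lower. Ednrb, which was not called, made up 33.5 and 20.3 CPM of these sums and Foxd3, called higher, 0.0416 and 15.4 CPM, with the defining factor Sox10 at 14 reads in the tumour. Spermatogonium markers summed to 48.7 and 66.45 CPM, with 3 of 5 measured genes called higher, Dazl from 0.0416 to 41.2 CPM, and 2 lower, Zbtb16 from 29.3 to 13.6 CPM, and the defining gene Nanos2 had 1 read in the tumour and 0 in the normal library. Forebrain markers summed to 25.0 and 15.8 CPM, with 2 of 3 measured genes called higher and Emx1, which made up 24.96 CPM of the normal sum, lower. Kidney stroma markers summed to 192 and 310 CPM, with 1 of 6 higher, 1 lower and 4 neither. The higher gene, Col1a1, made up 10.02 and 175 CPM of these sums. The lower gene, Tcf21, had 336 reads in the normal library against 29 in the tumour (12.2-fold lower, 8.35 to 18.5). Of the 4 called neither, Pdgfra, Pdgfrb and Foxd1 had log2 ratios of -0.70, -0.31 and -0.16, and Meis1 had 0.90. The part of these cell types in the values of the 7 genes was not tested.

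**Figure D4:**
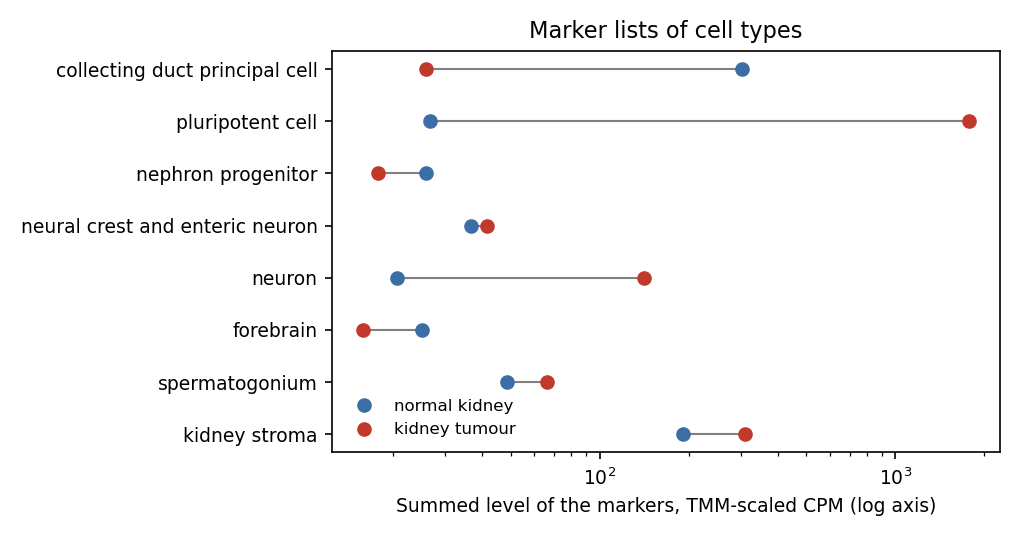
Each row gives the summed TMM-scaled CPM of a marker list on a log axis, blue for the normal and red for the tumour library. Pluripotent cell markers differed most, from 26.6 to 1780 CPM, followed by collecting duct markers, from 302 to 25.8 CPM, and neuron markers, from 20.7 to 142 CPM. The pluripotent list includes the induced factors Pou5f1 and Sox2.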

How the data were processed

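Per the labels' protocols, ribosomal RNA was removed from total RNA and a strand-keeping kit was used for the libraries. The deposited counts are whole reads over exons of UCSC knownCanonical models, and the deposited RPKM values equal the count per 1000 bases of model length and per 1000000 reads of the header total (largest difference 1.8e-06). Named in the submitters' processing notes are mm10, HOMER, STAR 2.5.0c and bcl2fastq, with no role. The treatment of multi-mapped reads: not given in the sources used here. Of models that share a symbol the one with most reads was kept. Library sizes were scaled with TMM over the whole table (edgeR 4.0.16, R 4.3.3), with factors of 0.822 (normal) and 1.22 (tumour), a floor of 3 counts being 0.125 and 0.118 CPM. Ratios and calls were computed in Python 3.11.15 with scipy 1.17.1 and checked on simulated counts, and DESeq2 1.42.0 gave alternative size factors. No p-value was computed, since there is 1 library per group. The 7 genes and the lists were chosen with earlier results of these data known. Named beside the 7 were all genes of the GDNF family list and of the Etv and Emx paralogs, all genes of lists with 5 or fewer measured, and in other lists the 2 called genes with the largest and the 2 with the smallest ratio at a mean of at least 1 CPM. Genes that complete a count of 5 or fewer were added after their values were seen. Promoter windows come from RefSeq (GRCm38.p6). Some genes that the rule takes are not reported here.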

Additional observations from a re-analysis of the deposited data

How the results depend on the processing

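No paired analysis was possible because each group holds 1 library. The count of the 7 genes called higher was 5 and of those called lower 1 under TMM and under every alternative tried, except that 4 were called higher at a 4-fold threshold and 4 with a minimum of 100 reads. A floor of 1 count could not change these counts, since each of the 7 had reads in both libraries. Nor could summing models, since each has 1 gene model. Dropping the read minimum could not add Gdnf, whose interval (0.825 to 8.83) spans 1. No ratio of the 7 genes changed sign. With plain CPM, header totals and RPKM plus 0.1 the log2 ratio was 2.53, 2.32 and 2.23 for Gfra1 (1.96 with TMM) and 3.81, 3.61 and 3.56 for Etv5 (3.25 with TMM). RPKM plus 0.1 gave 2.37 for Ret (4.32 with TMM), 1.49 for Gfra2 (2.83 with TMM) and -2.93 for Emx2 (-3.67 with TMM). That setting changes both the scaling and the pseudocount. Without scaling by length, the ratio of Etv5 to Etv4 was 16.0 in the normal library and 7.96 in the other, and that of Gfra1 to Ret 8.52 in the tumour. At 4-fold, 3012 measured genes were called higher and 2588 lower (5070 and 4586 at 2-fold). Of the list genes other than the 7, at 4-fold 17 were called higher and 13 lower (28 and 26 at 2-fold), with plain CPM 42 were called higher and 17 lower, and 17 were called lower with RPKM plus 0.1.

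Counts of single lists moved by over 1.5 times in these cases. Cascade genes called higher (5) came to 13, 9 and 9 with plain CPM, header totals and RPKM plus 0.1, and bud epithelium genes called higher (2) to 4 in each, and to 1 with at least 100 reads. Mesenchymal activators called lower (5) came to 1, 2 and 1 with the same 3 settings and to 3 with at least 100 reads, and restrictors called lower (5) to 2, 3 and 2. At 4-fold the counts were 2 of the GDNF family, 1 cascade gene and 3 feedback inhibitors higher and no restrictor higher, with 1 cascade gene, 1 activator and 2 restrictors lower. DESeq2 size factors, a floor of 1 count and the sum of all models of a symbol moved no count by over 1.5 times. The 4 to 30 reads behind Ret in the normal library, Gdnf and Gfra2 limit how closely their ratios are known, and no setting replaces the missing replicates.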
